A study of Mus musculus with 6 samples.

Results

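Transcripts for the nuclear-encoded subunits of respiratory complex I were examined in the blood of food-restricted mice. Members were the genes whose current symbol is Ndufa, Ndufab, Ndufb, Ndufc, Ndufs or Ndufv followed by a number, taken on every non-control probe of the array. They were 36 genes of 16535 named genes on the array, carried by 46 of 41174 probes. Of 38 such symbols in the RefSeq table, Ndufa11 and Ndufb1 had no named probe and were not analysed here. The rule used names alone and no measured value.

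The groups were food restriction (FR), in which mice received a diet restricted by 50% for 2 weeks, and control, in which mice received normal chow. All mice were male C57BL/6J, 9 weeks old per the labels, with 8 animals per diet, and blood was drawn from the right heart ventricle under anaesthesia. RNA of each diet was pooled by animal number, with animals 1 to 4 in pool 2, animals 5 to 8 in pool 3 and all 8 in pool 1. Matching FR and control pools were hybridised together on 2-colour arrays, 2 per pool with the dyes exchanged, which gave 6 arrays. Pools 2 and 3 share no animal and were the 2 replicates of every test, while pool 1 repeats their animals and is given as a description. A pool averages its animals, so the spread among single mice was not measured.

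Complex I is the entry point of the mitochondrial respiratory chain: it takes electrons from NADH, passes them along a flavin and a chain of iron-sulfur clusters to ubiquinone, and pumps protons across the inner membrane. Its L shape has a matrix arm, where NADH is oxidised and ubiquinone reduced, and a membrane arm, which pumps. Nuclear genes encode the core subunits of the matrix arm and all accessory subunits, whereas the core pumping subunits are encoded by mitochondrial DNA. In blood, mature red cells lose their mitochondria, and reticulocytes, platelets and white cells still carry them.

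The members split in both directions. Of 35 members tested, 6 had higher and 14 had lower signal in FR than in control blood at an adjusted p under 0.05 (limma on the log2 ratios of pools 2 and 3, Benjamini-Hochberg over 11497 features), and 15 did not pass. Of all features tested, 3.73% were called higher and 24.5% lower, so the members' share exceeded the background in both directions in this fit. Among the 7904 named genes tested, to which the members belong, 256 were called higher and 2228 lower. The median log2 ratio of the members was -0.25, against 0.01 over all features and -0.04 over the named genes. Ndufa13 and Ndufa3 had the highest ratios, 1.08 ± 0.38 and 1.01 ± 0.22 (SD, n = 2 pools), and Ndufs7 the lowest, -1.46 ± 0.35. In whole blood, fewer cells of a type and less RNA per cell cannot be told apart.

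Part of the lower count rests on how dim probes entered. Testing required a signal well above background in at least one of the diets on every one of the 4 arrays of pools 2 and 3. All 35 tested members met this in control, but 8 did not in FR, so these 8 entered through control alone. Among the 27 members above background in both diets, the same fit restricted to such features called 6 higher and 8 lower, against 6.17% and 18.6% of 7071 features, and the members' median was -0.04. Ndufb5, an accessory subunit of the distal membrane arm, was above background on 0 of 4 arrays in FR and 1 of 4 in control and was not tested.

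With 2 pools, limma estimated an infinite prior, so that its p-values rest on a variance shared between genes of like brightness. With the prior degrees of freedom estimated from all 3 pools (5.41), 2 members were called higher and 10 lower, against 1.53% and 15.5% of all features. The 4 higher calls lost were Ndufa1, Ndufb9, Ndufb6 and Ndufb8, and the lower calls lost included Ndufb2, Ndufs3 and Ndufa8. All 20 called members had the sign of their call on each of the 6 arrays, as did 94.9% of the 3249 called features. Their FR and control signals in pools 2 and 3 did not overlap, as in 97.2% of called features. Over all features, 17.3% were without overlap with FR higher and 32.5% with FR lower, and 9 of the 15 members that did not pass had no overlap either.

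**Figure D1:**
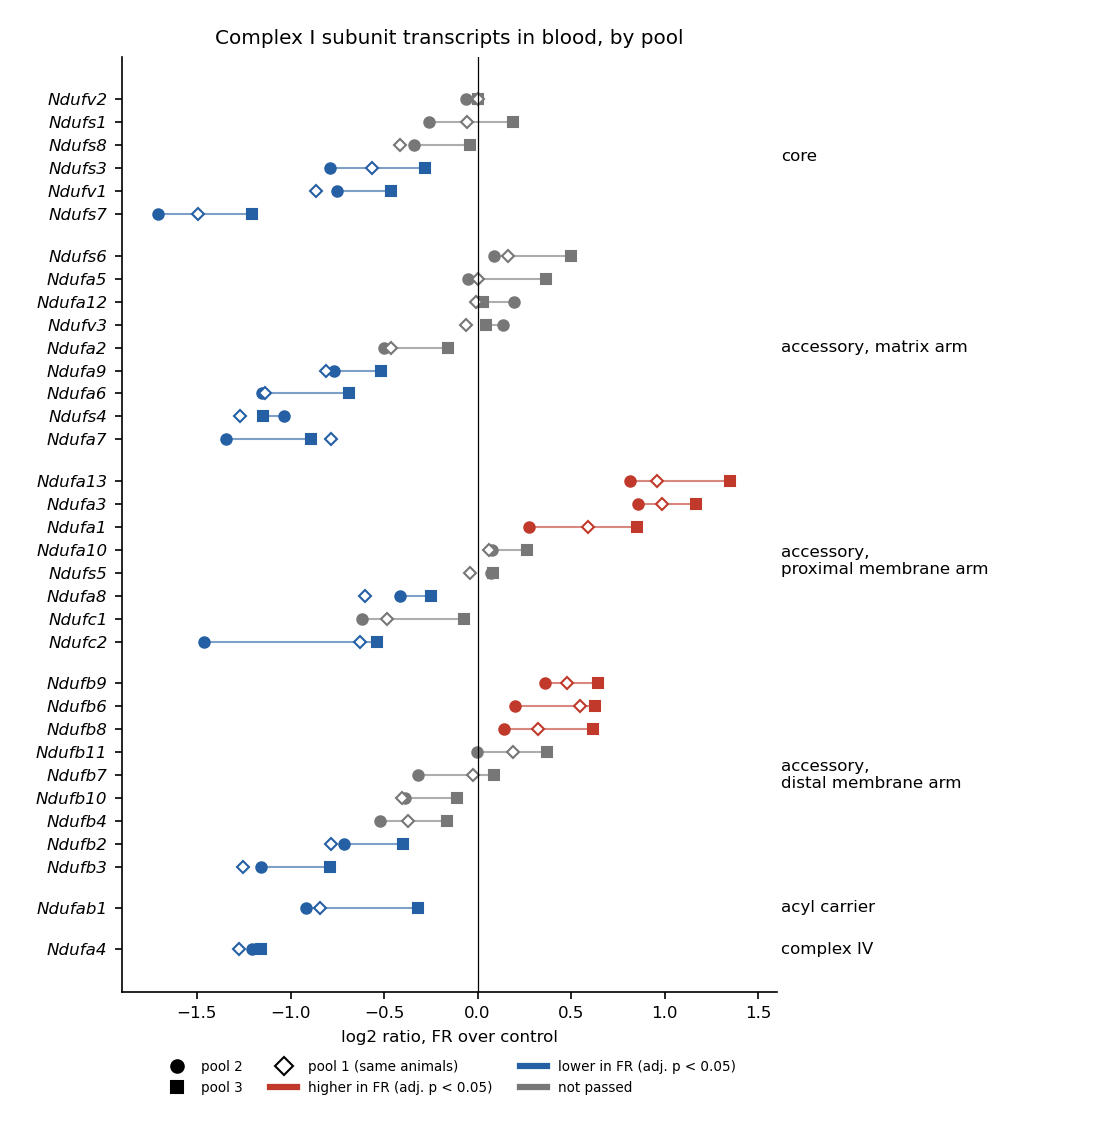
Log2 ratio of FR over control blood (x axis) for 34 of the 35 tested complex I members (rows), grouped by place in the complex, with pool 2 as circles, pool 3 as squares and pool 1, which holds the same animals, as open diamonds. Red members were called higher in FR, blue members lower, and grey members did not pass. Higher calls lie in the 2 membrane-arm groups, and Ndufs7 and Ndufa13 lie at the ends of the range.

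Promoter sequences are shown for the 2 members with the highest ratios and for Ndufs7 and Ndufs4, the 2 complex I members with the lowest ratios among those with a single window in the table. Each window runs from 250 bases before to 50 bases after the gene's start, from RefSeq on GRCm38.p6, and is printed 5′ to 3′ on the gene's strand. Capitals mark AAGATGG, the core letters recognised by the transcription factor YY1. The windows are chr8:69901971-69902270 (minus strand) for Ndufa13, chr7:3617123-3617422 (plus strand) for Ndufa3, chr10:80249199-80249498 (plus strand) for Ndufs7 and chr13:114388045-114388344 (minus strand) for Ndufs4.
Ndufa13: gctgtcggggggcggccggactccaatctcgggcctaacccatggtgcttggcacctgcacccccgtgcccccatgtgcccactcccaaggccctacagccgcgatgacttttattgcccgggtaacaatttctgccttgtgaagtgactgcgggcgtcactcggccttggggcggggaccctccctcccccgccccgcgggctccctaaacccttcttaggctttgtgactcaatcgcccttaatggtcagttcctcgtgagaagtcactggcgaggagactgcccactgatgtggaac
Ndufa3: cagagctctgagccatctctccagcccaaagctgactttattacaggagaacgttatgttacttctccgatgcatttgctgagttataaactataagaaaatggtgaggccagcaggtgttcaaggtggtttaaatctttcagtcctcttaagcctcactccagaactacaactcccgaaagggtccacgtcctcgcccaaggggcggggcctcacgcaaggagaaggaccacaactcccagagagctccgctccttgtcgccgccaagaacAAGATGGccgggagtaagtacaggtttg
Ndufs7: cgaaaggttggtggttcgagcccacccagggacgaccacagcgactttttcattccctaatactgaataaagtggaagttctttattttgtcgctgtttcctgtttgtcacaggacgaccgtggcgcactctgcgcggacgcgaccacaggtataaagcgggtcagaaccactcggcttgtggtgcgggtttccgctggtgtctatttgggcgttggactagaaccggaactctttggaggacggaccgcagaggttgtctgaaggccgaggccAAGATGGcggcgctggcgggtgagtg
Ndufs4: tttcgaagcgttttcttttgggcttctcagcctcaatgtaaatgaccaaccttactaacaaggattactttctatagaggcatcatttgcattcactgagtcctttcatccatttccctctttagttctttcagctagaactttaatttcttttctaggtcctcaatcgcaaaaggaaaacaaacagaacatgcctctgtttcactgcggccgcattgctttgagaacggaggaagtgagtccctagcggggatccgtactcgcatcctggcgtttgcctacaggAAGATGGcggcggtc
AAGATGG stood in Ndufa3, which had a positive ratio, and in Ndufs7 and Ndufs4, which had negative ones, each time once and within the 50 bases after the gene's start. Ndufa13 had no match in its window.

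Over the members, 34 windows for 32 of the 36 genes were in the RefSeq table, and motifs were searched on both strands. AAGATGG was in 7 of 34 member windows (20.6%), against 6.3% of all 32851 windows and 7.1% of the windows of tested genes. It occurred in 2 of 5 genes called higher, 3 of 13 called lower and 2 of 13 that did not pass. The ETS core CCGGAAG, read by the factor GABP, was in 4 member windows (11.8%), against 8.9% of all windows and 15.1% of those of tested genes. GCGCATG, a stretch of the palindrome read by NRF1, was in 4 member windows (11.8%), against 3.9% of all and 5.6% of those of tested genes, and in 2 of 5 genes called higher, 2 of 13 called lower and 0 of 13 that did not pass. CCAAT was in 29.4% of member windows and 37.4% of all, and TATAAA in 14.7% of member windows and 13.6% of all. Median GC content was 59.2% in member windows and 59.3% in those of tested genes. These matches describe letters in the windows and were not tested as binding sites.

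The core subunits of the matrix arm carry the flavin and the iron-sulfur clusters. Of the 7 core members, 0 were called higher and 4 lower, and 3 were not called, against 3.73% higher and 24.5% lower over all features. Ndufs7, which holds the last iron-sulfur cluster before ubiquinone, had normalized signals of 195.2 and 170.0 in FR pools 2 and 3, against 638.4 and 392.7 in the control pools. Both FR pools lay below both control pools, and pool 1 gave 114.1 in FR and 321.3 in control. The log2 ratio was -1.46 ± 0.35 (SD, n = 2 pools; adjusted p = 2.09e-19, and 0.00428 with the prior of 3 pools). On all 4 arrays Ndufs7 was well above background in both diets, and its call held under each of 15 processing alternatives.

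Ndufv1, the flavoprotein where NADH is oxidised, had signals of 105.2 and 94.2 in FR pools and 177.0 and 130.0 in control pools. Its ratio was -0.61 ± 0.20 (adjusted p = 3.65e-05), with FR above background on 2 of 4 arrays, and -1.86 with Agilent's processed signals. Ndufs3, a core subunit of the ubiquinone-reducing module, had 185.8 and 189.9 in FR pools against 321.6 and 230.7 in control pools. The 2 control pools of Ndufs3 differed more from each other than the 2 FR pools did, and the ratio was -0.54 ± 0.36 (adjusted p = 0.00334, and 0.0935 with the prior of 3 pools).

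Of the core members that did not pass, Ndufs8, an iron-sulfur subunit, was above background on 0 of 4 FR arrays. Its fitted ratio was -0.19 (adjusted p = 0.205). Several alternatives called Ndufs8 lower, among them Agilent's processed signals at -1.04 (adjusted p = 0.0104) and median centring at -0.35 (adjusted p = 0.00557). Ndufs1, the largest matrix-arm core subunit, gave -0.26 in pool 2 and 0.19 in pool 3 (adjusted p = 0.893). Ndufv2, the iron-sulfur partner of Ndufv1, gave -0.06 in pool 2 and 0.00 in pool 3 (adjusted p = 0.895). FR signal of Ndufv2 was above background on 2 of 4 arrays, so Ndufv2 entered through control alone. The ratios of Ndufs1 thus had opposite signs in the 2 pools, while those of Ndufv2 lay close to 0.

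The accessory subunits of the matrix arm surround that core. Of 9 tested, 0 were called higher, 4 lower and 5 neither, with a median of -0.33. Over all features, 3.73% were called higher and 24.5% lower. Ndufs4, which is added late in assembly and ties the NADH-oxidising module to the rest of the arm, had signals of 275.6 and 234.2 in FR pools, against 565.2 and 518.0 in control pools. The pools lay close together within each diet and far apart between diets. The log2 ratio was -1.09 ± 0.08 (adjusted p = 1.48e-11, and 0.00545 with the prior of 3 pools), and the call held under all 15 alternatives.

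Ndufa7, a small matrix-arm subunit, had signals of 645.3 and 1053 in FR pools, against 1641 and 1950 in control pools. Its ratio was -1.12 ± 0.32 (adjusted p = 3.19e-13, and 0.00737 with the prior of 3 pools), and its second probe gave -0.76 ± 0.22. Pool 3 was the higher pool in both diets. Ndufa6, a protein of the LYR family that binds the acyl carrier Ndufab1, had 197.0 and 192.6 in FR pools against 437.4 and 309.7 in control pools, a ratio of -0.92 ± 0.33 (adjusted p = 5.30e-08). Ndufa9, which belongs to the short-chain dehydrogenase family and binds NADPH, had 112.4 and 101.7 in FR pools against 191.2 and 145.4 in control pools. Its ratio was -0.64 ± 0.18 (adjusted p = 3.28e-05), with FR above background on 2 of 4 arrays, and -1.86 with Agilent's processed signals.

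The 5 matrix-arm accessory members that did not pass lay between -0.33 and 0.29. Ndufa2, which has a thioredoxin-like fold, gave -0.50 in pool 2 and -0.16 in pool 3 (adjusted p = 0.0801). Ndufs6, a zinc-binding subunit, gave 0.09 and 0.50 (adjusted p = 0.144), and its 3 probes gave nearly the same mean ratio, between 0.29 and 0.31. Ndufa12, which takes the place of an assembly factor late in assembly, had 3 probes that differed in sign, at 0.11, 0.22 and -0.17, and none was called. Ndufa5 averaged 0.16 and Ndufv3, a small subunit at the tip of the arm, 0.09.

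Ndufab1, the mitochondrial acyl carrier protein, sits in the complex in both arms and also serves mitochondrial fatty acid synthesis. Its brighter probe had signals of 85.2 and 93.8 in FR pools, against 160.8 and 116.8 in control pools, with FR above background on 1 of 4 arrays. The ratio was -0.62 ± 0.42 (adjusted p = 5.25e-06, and 0.0494 with the prior of 3 pools). It was -2.31 with Agilent's processed signals, and the call ended with pool 1 in place of pool 2 (adjusted p = 0.0513). The second Ndufab1 probe was too dim to test.

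Every higher call was of a membrane-arm member, and 3.73% of all features were called higher. Brightness, the mean log2 signal of FR and control, reached 12.45 in the proximal and 10.65 in the distal membrane arm. It reached 10.47 in accessory matrix-arm members and 7.98 in core members. Whether the higher calls went with place in the complex or with brightness was not tested. Of 8 accessory members of the proximal membrane arm, next to the matrix arm, 3 were called higher, 2 lower and 3 neither. The share of lower calls was near the 24.5% of all features. With the prior of 3 pools, 2 were higher and 1 lower, against 1.53% and 15.5% of all features. The median of these 8 members was 0.12, and -0.08 when the arrays were centred on their medians in place of loess. Ndufa13, which spans the membrane at the junction of the arms and is also known as a regulator of cell death, had signals of 5660 and 7303 in FR pools, against 3222 and 2862 in control pools. Pool 1 gave 5222 in FR and 2684 in control, and no FR pool came near a control pool. The log2 ratio was 1.08 ± 0.38 (adjusted p = 2.48e-11, and 0.0105 with the prior of 3 pools).

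Ndufa3, a small single-helix subunit, had signals of 5987 and 7401 in FR pools, against 3309 and 3294 in control pools. The ratio was 1.01 ± 0.22 (adjusted p = 6.42e-10, and 0.00857 with the prior of 3 pools). Ndufa13 and Ndufa3 are the 2 higher members whose calls held under all 15 alternatives. Ndufa1, a small subunit encoded on the X chromosome, had 6729 and 8802 in FR pools, against 5558 and 4877 in control pools. Its ratio was 0.56 ± 0.41 (adjusted p = 0.00173, and 0.0909 with the prior of 3 pools), 0.28 in pool 2 and 0.85 in pool 3, and its second probe gave 0.67 ± 0.39. The Ndufa1 call ended with median centring, at a ratio of 0.42 (adjusted p = 0.123).

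Ndufc2, a subunit of the proximal membrane arm, had 141.7 and 241.1 in FR pools, against 390.2 and 349.4 in control pools. Its ratio of -0.998 ± 0.65 (adjusted p = 2.80e-09, and 0.0325 with the prior of 3 pools) had the widest spread of the 35 members, at -1.46 in pool 2 and -0.54 in pool 3, and was -0.58 with pool 1 in place of pool 2. Ndufa8, which faces the intermembrane space and carries disulfide-bonded helices, was above background on 0 of 4 FR arrays, and its fitted ratio was -0.33 (adjusted p = 0.0123, and 0.0893 with the prior of 3 pools). The ratio was -0.21 without background subtraction (adjusted p = 0.0528), -0.53 with median centring, -0.51 with pool 1 in place of pool 3 and -1.28 with Agilent's processed signals. Ndufc1 did not pass at -0.34 ± 0.38 (adjusted p = 0.0933), and its second probe gave -0.17. Ndufa10, related to nucleoside kinases, averaged 0.17 and Ndufs5, another subunit of the intermembrane space, 0.08, and neither passed.

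**Figure D2:**
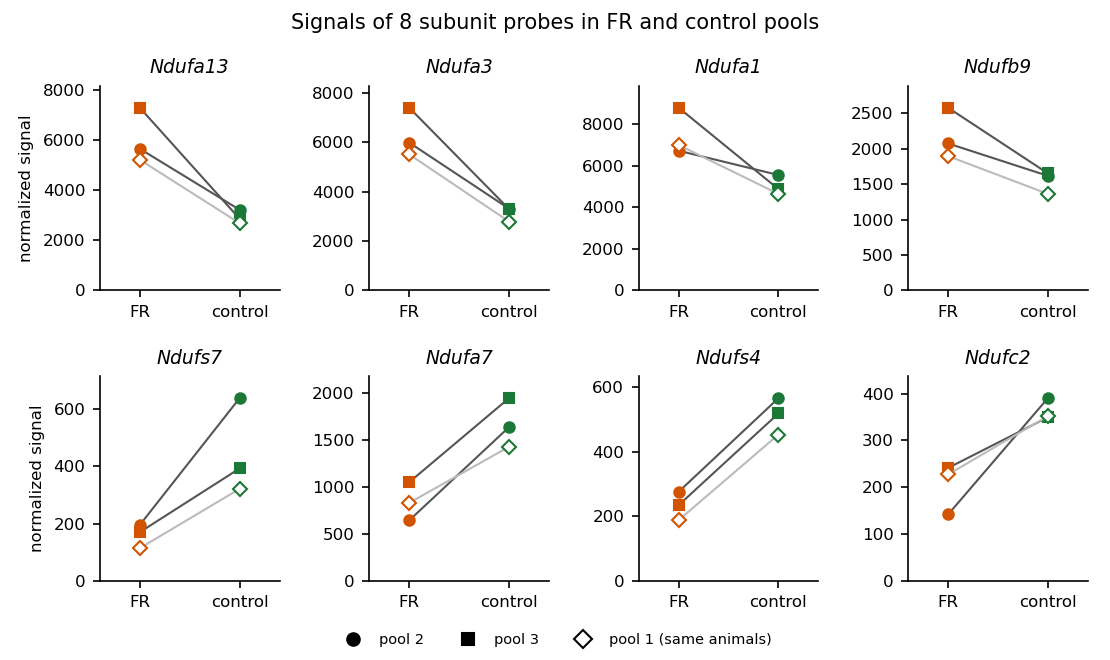
Normalized signal (y axis, linear, starting at 0, with its own scale per gene) of 8 called complex I probes in FR (left) and control (right) blood, with lines joining the matched pools. The upper 4 genes were higher in FR and the lower 4 lower in FR in each pool. Ndufa13 had 5660 and 7303 in FR pools 2 and 3, against 3222 and 2862 in control.

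In the distal membrane arm 9 members were tested: 3 were called higher, 2 lower and 4 neither, with a median of -0.11. The share of lower calls was near the 24.5% of all features, and with the prior of 3 pools 0 were higher and 1 lower. Ndufb9, a LYR-family protein that binds the membrane-arm copy of Ndufab1, had signals of 2076 and 2581 in FR pools, against 1618 and 1653 in control pools. Its ratio was 0.50 ± 0.20 (adjusted p = 0.00297, and 0.0636 with the prior of 3 pools). In the main fit Ndufb9 and its partner Ndufab1 were called in opposite directions, while Ndufa6, which also binds Ndufab1, was called lower. The Ndufb9 call ended with the prior of 3 pools, and Ndufab1 was above background in FR on 1 of 4 arrays. Ndufb6 had 355.6 and 375.3 in FR pools against 309.7 and 243.2 in control pools, a ratio of 0.41 ± 0.30 (adjusted p = 0.0282, and 0.157 with the prior of 3 pools). Ndufb8 had 611.6 and 742.0 in FR pools against 554.3 and 483.7 in control pools, a ratio of 0.38 ± 0.34 (adjusted p = 0.0373, and 0.195 with the prior of 3 pools). Both Ndufb6 and Ndufb8 had a small difference in pool 2 and a larger one in pool 3, and both calls also ended with Agilent's processed signals. With median centring the ratios were 0.31 for Ndufb9, 0.18 for Ndufb6 and 0.15 for Ndufb8, and none of the 3 was called. Ndufb8 was at 0.23 with pool 1 in place of pool 3.

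Ndufb3, a small distal subunit, had signals of 142.6 and 128.9 in FR pools, against 318.3 and 223.1 in control pools, a ratio of -0.97 ± 0.26 (adjusted p = 6.70e-09, and 0.0110 with the prior of 3 pools). Ndufb3 was above background on 3 of 4 FR arrays and entered through control alone, and its ratio was -1.66 with Agilent's processed signals. Ndufb2, another distal subunit, had 211.9 and 244.9 in FR pools against 347.8 and 322.8 in control pools, a ratio of -0.56 ± 0.22 (adjusted p = 0.00188, and 0.0583 with the prior of 3 pools). FR lay below control in both pools of each. Ndufb4 (-0.34), Ndufb10 (-0.25), Ndufb7 (-0.11) and Ndufb11 (0.18) did not pass. Ndufb7 and Ndufb10 are intermembrane-space subunits, and Ndufb11 is encoded on the X chromosome.

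Ndufa4 matches the naming rule, but the protein is now placed in complex IV. Its signals were 474.7 and 459.7 in FR pools, against 1096 and 1024 in control pools, and pools of a diet agreed closely. The ratio was -1.18 ± 0.04 (adjusted p = 2.09e-14, and 0.00399 with the prior of 3 pools). Without Ndufa4, 34 complex I members were tested, 6 called higher and 13 lower.

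Of the 7 members with several probes, Ndufab1 had 1 that passed, 5 had all passing probes on 1 side of 0, and those of Ndufa12 differed in sign. With every probe as its own feature, 7 member probes were called higher, 15 lower and 21 neither, against 4.00% and 25.5% of 13257 probes. RefSeq names copies of Ndufa12, Ndufab1, Ndufs5, Ndufs6 and Ndufb4, and cross-hybridisation between them and these members was not tested.

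The direction of the call went with the brightness of the probe, taken as the mean log2 signal of FR and control. Median brightness was 11.28 for the 6 higher members, 7.67 for the 14 lower members and 8.39 for those that did not pass. Of 7 members at a brightness of 10 or more, 4 were higher and 0 lower, whereas of 28 dimmer members 2 were higher and 14 lower. Among all 1241 features at 10 or more, 9.67% were higher and 23% lower, and among the 10256 dimmer features 3.01% and 24.7%. Across the 35 members, Pearson's r between brightness and log2 ratio was 0.49 and Spearman's rho 0.41, against -0.02 and 0.04 across all 11497 features. The points share arrays and background correction, and genes are not independent replicates. Over the 27 members above background in both diets r was 0.48.

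**Figure D3:**
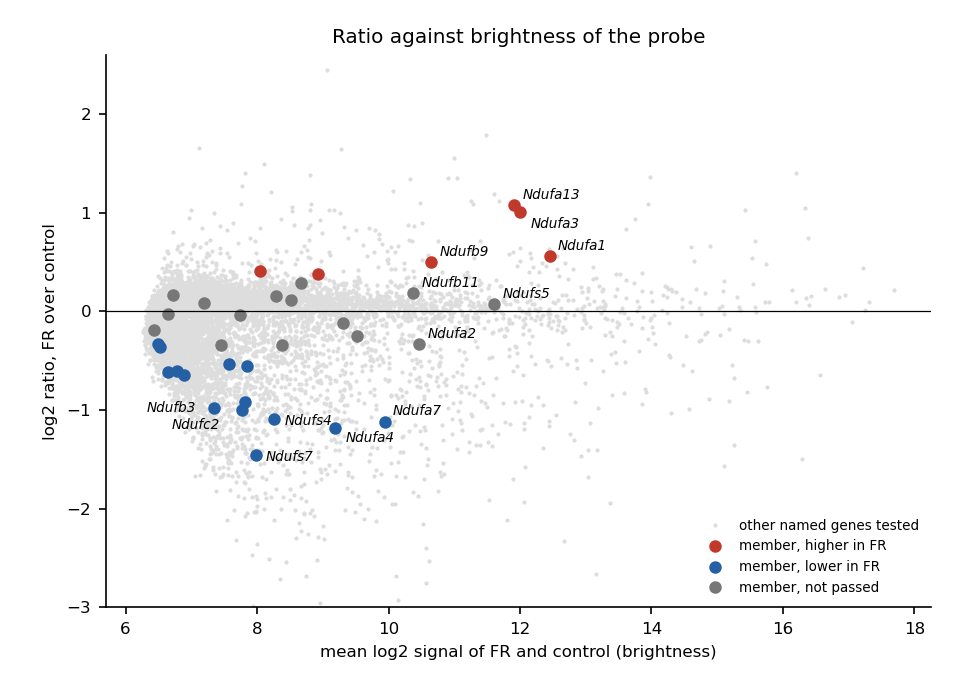
Log2 ratio of FR over control (y axis) against brightness, the mean log2 signal of FR and control (x axis), for 7904 named genes tested (light grey) with the complex I members in red (higher), blue (lower) or dark grey (not passed). The members' higher calls lie at 8.04 to 12.45 and the lower calls at 6.49 to 9.94, and 7 other genes fall outside the plotted range.

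The ratios also differed between the pools. In 32 of 35 members the ratio was higher in pool 3 than in pool 2, by a median of 0.36, whereas this held for 6202 of 11497 features (53.9%), by a median of 0.03. The median member ratio was -0.39 in pool 2 and -0.07 in pool 3, with -0.37 in pool 1. The same was seen on the arrays with FR in Cy5 (29 of 35 members) and on those with FR in Cy3 (31 of 35). Some other respiratory lists were alike: the ratio was higher in pool 3 in 15 of 16 ATP synthase subunits (median difference 0.25), 7 of 8 of complex III (0.40) and 3 of 4 of complex II (0.50). Nearer to the share of all features were 9 of 14 complex IV subunits (0.17), 4 of 7 complex I assembly factors (0.12) and 2 of 4 regulators of mitochondrial genes (0.005). Among the complex I members, median centring left 28 of 35, with a median difference of 0.20, against -0.04 over all features. The order of the members was nevertheless alike in the pools, with Pearson's r of 0.93 between pools 2 and 3 across members and 0.85 across all features. With 1 pool of each set of animals, the pool difference has no replicate.

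Several blood cell marker lists moved with diet. For comparison, 3.73% of all features were called higher and 24.5% lower. Of 8 B cell markers 0 were called higher and 7 lower, with a median log2 ratio of -2.40 and Cd79b at -4.48. Of 5 T cell markers 3 were lower (median -1.39, Cd3d at -1.89), of 5 monocyte markers 4 were lower (median -1.45, Ctss at -3.48), and of 8 platelet markers 7 were lower (median -1.26, Ppbp at -2.67). Of 5 neutrophil markers 2 were lower, with a median of -0.19 and S100a9 at -0.73 (adjusted p = 0.118 with the prior of 3 pools). With that prior 0 neutrophil markers were called. Each marker named here had the largest absolute ratio of its list, and the lists were not uniform. The highest ratio was -0.14 in the B cell, -0.05 in the T cell and 0.10 in the monocyte list. It was -0.11 in the platelet and 0.14 in the neutrophil list. Of 8 erythroid markers 2 were higher, 1 lower and 5 neither, and their median was 0.05, split into -0.19 for pool 2 and 0.22 for pool 3. Of 4 cardiac muscle markers, examined because blood was drawn from the heart, none was called, with Myl3 at 0.37 (adjusted p = 0.0603).

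Between pools, the ratio was higher in pool 3 than in pool 2 for 8 of 8 erythroid markers (median difference 0.58), 8 of 8 B cell markers (0.47), 5 of 5 monocyte markers (0.79) and 5 of 5 neutrophil markers (1.04). This held for 3 of 5 T cell, 3 of 8 platelet and 1 of 4 cardiac markers. In summed signal, B cell markers gave 1892 and 1883 in FR pools against 15040 and 9988 in control pools, and monocyte markers 3988 and 4974 against 45040 and 30240. Platelet markers gave 39000 and 37070 in FR pools against 91860 and 92760 in control pools, T cell markers 2341 and 2411 against 3655 and 3536, and neutrophil markers 9399 and 9905 against 21310 and 10720. Erythroid markers gave 456500 and 532800 in FR pools against 450900 and 378500 in control pools, and cardiac markers 1993 and 1828 against 1792 and 1717. No tested marker of these lists was below background on every array of pools 2 and 3 in either diet. Cd4, Itgam, the neutrophil genes Ngp, Camp and Mmp8, and the cardiac genes Myh6, Tnnt2, Myl2, Mb, Nppa and Ryr2 were too dim to test. The part of blood cell composition in the complex I ratios was not tested.

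The rest of the respiratory chain was measured on lists of nuclear genes. Of 4 complex II subunits 0 were higher and 1 lower (median -0.06), and of 8 complex III subunits 1 was higher and 4 lower (median -0.32). Of 14 complex IV subunits 4 were higher and 3 lower, with a median of 0.15 that became -0.09 with median centring. Of 16 ATP synthase subunits 5 were higher and 8 lower (median -0.34). Over all features 3.73% were called higher and 24.5% lower, and the lower shares of complexes II and IV were near the latter. Complexes III, IV and ATP synthase held calls in both directions, and differences between complexes were not tested.

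**Figure D4:**
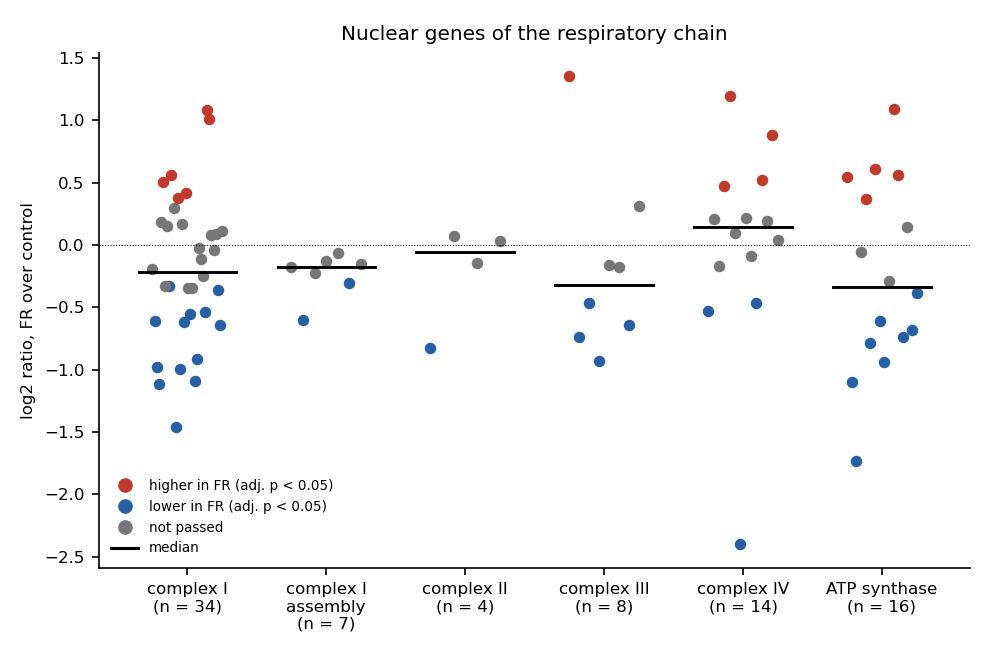
Log2 ratio of FR over control (y axis) for the tested nuclear genes of complex I without Ndufa4, its assembly factors and complexes II to V (x axis), 1 point per gene spread sideways for visibility, with bars at medians. Red points were called higher, blue lower, and grey did not pass. Complexes I, III, IV and ATP synthase have points of both colours.

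Assembly factors build complex I without remaining in it. Of 14 on the array, 7 were tested: 0 were higher, 2 lower and 5 neither, with a median of -0.17. The share of lower calls was near the 24.5% of all features, and 6 of the 7 entered through control alone, with FR above background on 0 to 2 of 4 arrays. Dmac1, a factor for the distal membrane arm that was above background in both diets, was at -0.60 ± 0.08 (SD, n = 2 pools; adjusted p = 0.000535, and 0.0347 with the prior of 3 pools). Foxred1 was above background on 0 of 4 FR arrays, and its fitted ratio of -0.30 (adjusted p = 0.0359, and 0.129 with the prior of 3 pools) lay between -1.27 with Agilent's processed signals and -0.11 on the FR in Cy3 arrays alone, where it was not called. Of 11 regulators of mitochondrial genes on the array, 4 were tested, 0 higher and 2 lower. Esrra, a nuclear receptor that drives respiratory genes, was above background on 0 of 4 FR arrays, and its fitted ratio was -0.45 (adjusted p = 0.000278), and -2.07 with Agilent's processed signals. Yy1, whose core letters are capitalised in the promoters above, was at -0.44 ± 0.03 (adjusted p = 0.00276, and 0.0496 with the prior of 3 pools), with FR above background on 2 of 4 arrays, and -1.23 with Agilent's processed signals. Ppargc1a, Nrf1, Gabpa and Tfam were too dim to test.

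The arrays differed in how much of them was measured. FR RNA was well above background on 20.4% to 55.6% of spots per array and control RNA on 37.2% to 62.1%, and no spot was saturated. The lowest share belonged to FR in Cy3 of pool 3. Without the FR in Cy3 arrays, 6 members were called higher and 16 lower, against 8.72% and 27.3% of all features. All arrays of pools 2 and 3 lie on 1 slide and those of pool 1 on another, and each array carries both diets.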

How the data were processed

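Scanner files of 6 arrays and the series table were used. Per the labels' protocols, RNA was purified on columns and labelled after low-input linear amplification. The authors deposited spot intensity on a linear scale, for which the submitters' processing notes name Agilent Feature Extraction, version 11.0.1.1. The deposited series table holds log10 values, which equalled the ratio of red to green processed signal of the same array, uncentred and with swapped arrays unturned. Its medians, FR in Cy5 then FR in Cy3, were -0.00938 and -0.0277 (pool 1), 0.0441 and 0.00763 (pool 2), and 0.0520 and -0.0221 (pool 3). Directions follow the dyes in the labels.

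From the deposited intensity values, median signals were corrected with normexp (offset 50; the mean signals assumed in the design are not among the columns used here). Loess was fitted within arrays with control spots at weight 0, and control and outlier spots were left out (0.346% to 0.473% of spots, no member probe). Log2 ratios computed from the deposited intensities were turned to FR over control and averaged over a pool's 2 arrays. The brightest probe stood for a gene. Signals per diet were taken after loess and quantile scaling of brightness. For a probe above background in 1 diet alone, the fitted log2 ratio is given with its count of FR arrays above background, and no linear fold.

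Testing used limma 3.58.1 in R 4.3.3 (two-sided, trend, pools 2 and 3). It was run on simulated data with the same spread for every gene. That run could not test how the calls fare when the spread differs between genes. FR and control share an array by construction, so the pool is a block of the array and not of shared animals. The array carries older annotation, and RefSeq (GRCm38.p6) was used for current names and promoter windows only. Members, the called assembly factors and regulators, and 1 marker per list (the largest absolute ratio) were named, except 1 member and 1 marker, which are not reported here. The members and lists were chosen with earlier results of these data known.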

Additional observations from a re-analysis of the deposited data

How the results depend on the processing

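Across 15 processing alternatives (the deposited series table gave the values of Agilent's processed signals and is counted with them) no member reversed a called ratio. Ndufa13, Ndufa3, Ndufs7, Ndufs4, Ndufa7, Ndufa4 and Ndufb3 kept their calls in each one that could be run for them; the other 4 higher and 9 lower calls ended in at least 1, and 10 of 15 members that did not pass were called in at least 1. Without the replicate block, that is with FR and control taken as unpaired channels, 2 members were higher and 5 lower (all features 114 and 972). Median centring gave 2 higher and 18 lower members and 181 features higher and 4098 lower (1.57% and 35.6%); it moved the median of all features to -0.18, and the members' median minus that of all features was -0.27, against -0.26 with loess. The prior of 3 pools gave 2 higher members and, over all features, 176 higher and 1786 lower. Requiring both diets above background, which tests fewer genes, left 8 lower members and 1312 lower features. All 6 arrays with the slide as a block gave 11 higher members and 3544 higher and 4448 lower features (30.8% and 38.7%), counting pool 1's repeat of the same animals. The share of higher members was there near that of all features. All 3 pools as replicates gave 921 features higher, FR in Cy5 alone 1002, and FR in Cy3 alone 3 members higher, against 3.31% of all features. With pool 1 in place of pool 2 or of pool 3, members numbered 6 higher in both and 12 to 19 lower, features 474 to 1720 higher and 2386 to 4161 lower, and the members' median lay between -0.38 and -0.26; without pool 3 it was 1720 features. The causes were not tested. Agilent's processed signals gave 4 higher and 15 lower members, against 3.37% and 26.6% of all features. Dim probes limit the lower calls: 6 of the 14 lower members were not above background in FR on all 4 arrays.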
